A study of Mus musculus with 2 samples.

Results

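The lymphotoxin and RANK axis was taken as 10 genes of the 28692 in the deposited count tables, found by their symbols: the ligand genes Lta, Ltb, Tnfsf11 and Il7, the receptor genes Ltbr, Tnfrsf1a, Tnfrsf11a and Il7r, and the NF-kB genes Relb and Nfkb2. All 10 were present. The samples were 2 droplet libraries of CD31+ cells from the mesentery of C57BL/6 mice at postnatal day 8, each from the pooled cells of several mice. The first came from control mice and the second from mice lacking the tumor suppressor gene Flcn in endothelial cells (Cdh5-BAC-CreERT2+ Flcn flox/flox, called Flcn iΔEC), in which the Cdh5 promoter drives the inducible Cre. According to the labels, 40 µg of 4-hydroxytamoxifen was given under the skin in both groups on 4 occasions, the first at P2, then at P3.5 and P5, and last at P6.5. The alleles that the control mice carried are not given in the sources used here. The question asked of these genes was which innate lymphoid, T and B cells held the ligand transcripts, which endothelial and stromal cells held the receptors and NF-kB genes, and whether the levels differed between the libraries.

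Lymph nodes form where lymphoid tissue inducer (LTi) cells, a kind of group 3 innate lymphoid cell (ILC3), meet stromal and endothelial organizer cells. LTi cells carry membrane lymphotoxin, a trimer of the Lta and Ltb products that binds the lymphotoxin beta receptor (Ltbr), and RANK ligand (Tnfsf11), which binds RANK (Tnfrsf11a). Ltbr and RANK act in part through the non-canonical NF-kB pathway, in which the p100 precursor encoded by Nfkb2 is cut to p52 and pairs with RelB, whereas interleukin 7 from stromal and lymphatic cells keeps LTi cells and lymphocytes alive through the interleukin 7 receptor (Il7r).

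Each group was 1 library, without replicates. For that reason nothing was tested, and all intervals given are 95% intervals of counting error only. Levels are given as CPM, the unique molecular identifiers (UMIs) of a gene summed over the cells of a class in 1 library divided by all UMIs of those cells and multiplied by 1000000. They are compared between classes and libraries for 1 gene at a time, not between genes. Classes were rebuilt by clustering without the members, and "-like" marks a name given from marker genes. The control library held 6814 cells with a median of 7283 UMIs, and the Flcn iΔEC library 4459 cells with a median of 8587. The 21 classes with at least 20 cells in each library took in 91.4% of control and 89.7% of Flcn iΔEC cells. The libraries shared 6 barcodes. Flcn itself was at 10.2 CPM (8.58 to 12.03) in the endothelial compartment of the control and 9.77 CPM (8.63 to 11.02) in that of the Flcn iΔEC library, but reads at the 3′ end need not fall in the deleted part, so this does not check the labels. The control held 9 UMIs of Xist and the Flcn iΔEC library 63462, so that genotype, library and the sex of the pooled mice cannot be told apart in any comparison of the libraries below.

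The innate lymphoid class at the centre of this axis, called ILC3/LTi-like, held 264 control and 222 Flcn iΔEC cells. Its 7 marker genes given here, among them Il22 and Il23r, each reached 10% of the cells or more in both libraries. The lymphoid classes beside it held 39 and 34 natural killer (NK)/ILC1-like cells, 48 and 41 gamma delta T-like cells, 116 and 53 regulatory T (Treg)-like cells, 1824 and 724 CD4 T-like cells, 473 and 268 CD8 T-like cells, 2409 and 1349 B-like cells and 28 and 25 early B-like cells (control first). The endothelial classes were lymphatic (LEC-like, 84 and 310 cells), lymph node sinus LEC-like (27 and 63), high endothelial venule (HEV)-like (96 and 130), venous (VEC-like, 73 and 122), arterial (AEC-like, 101 and 130), capillary-like (107 and 43) and cycling endothelial cells (57 and 60). Stromal cells, which lack the CD31 surface protein that the cells had been selected on, numbered 30 and 32.

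Of the marker genes of the HEV-like class, 5 of 6 in the control and 6 of 6 in the Flcn iΔEC library reached 10% of its cells, and of those of the sinus LEC-like class 6 of 7 in both. Both classes also held lymphoid transcripts. All 7 ILC3 marker genes had UMIs in them, and their summed level was 2226 and 1704 CPM in HEV-like and 2599 and 1623 CPM in sinus LEC-like cells, against 4793 and 3694 CPM in the ILC3/LTi-like class and 152 and 107.5 CPM in LEC-like cells. Blood endothelium also held part of this list, with 362 to 808 CPM in VEC-, AEC- and capillary-like cells. Il22, a cytokine of these cells, and Il23r together stood at 154.5 and 207 CPM in HEV-like cells, 306 and 190 CPM in sinus LEC-like cells and 546 and 526.5 CPM in ILC3/LTi-like cells, whereas they were at 0 and 3.60 CPM in LEC-like cells and between 0 and 2.25 CPM in VEC-, AEC- and capillary-like cells. At a resolution of 1.6 the clustering divided the HEV-like class into 59 control and 72 Flcn iΔEC cells that kept the name and a cluster of 35 and 57 cells led by Ccl4, Ccl3 and Ifitm1, in which Glycam1, a mucin-like product of HEVs, stood at 30.7 and 5.20 CPM against 11235 and 3977 CPM. Levels in the HEV-like and sinus LEC-like classes are therefore given below with and without the cells that held such UMIs.

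**Figure D1:**
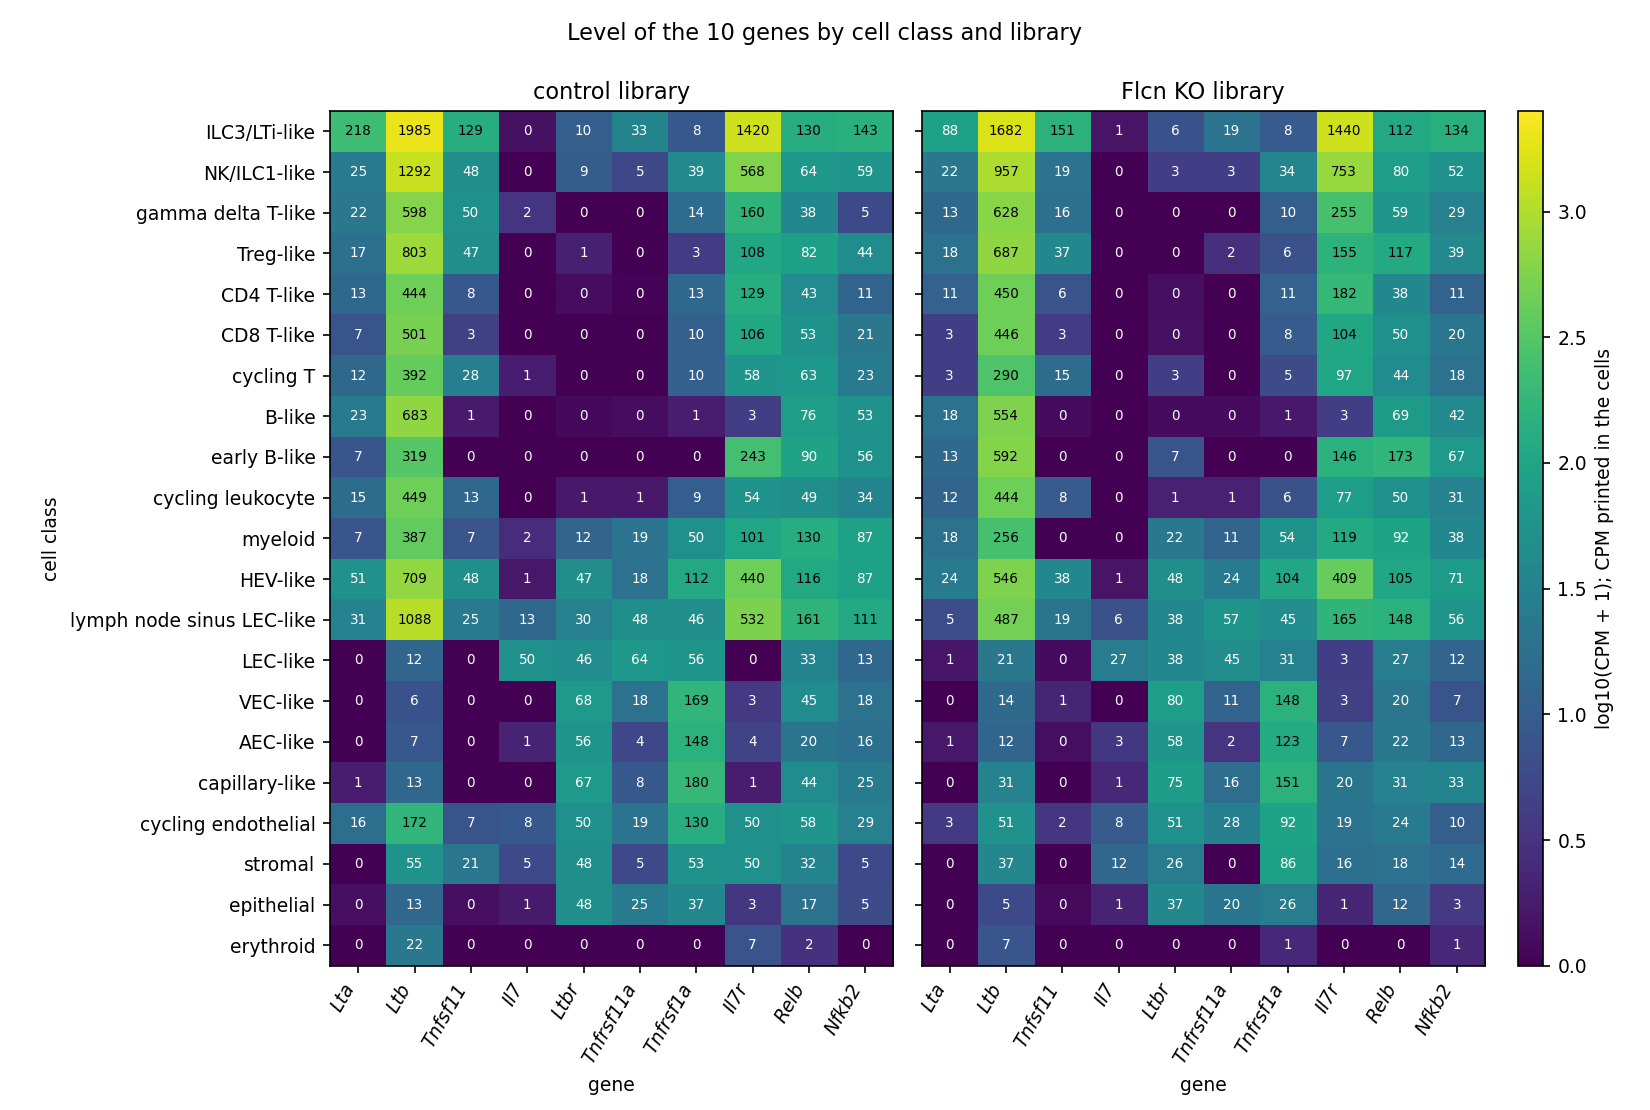
Map of the 10 genes (columns) over 21 cell classes (rows) in the control (left) and Flcn iΔEC (right) library, coloured by log10(CPM + 1) with the CPM, rounded to whole numbers, printed in each cell. Ltb and Il7r are brightest in the ILC3/LTi-like row (1985 and 1420 CPM in the control), Il7 has its highest value in the LEC-like row (49.95 and 26.6 CPM), and Tnfrsf1a is brightest in the blood endothelial rows.

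Ltb, the membrane-anchoring subunit of lymphotoxin, was detected in every lymphoid class and was highest in ILC3/LTi-like cells of both libraries, at 1985 CPM (1929 to 2043) in the control and 1682 CPM (1625 to 1742) in the Flcn iΔEC library. NK/ILC1-like cells followed at 1292 CPM (1188 to 1403) and 957 CPM (853 to 1070), and Treg-like cells at 803 and 687 CPM. The 2 innate classes thus stood above the other lymphoid classes, and their intervals did not overlap those of any T or B class. B-like cells had 683 and 554 CPM, gamma delta T-like cells 598 and 628 CPM, CD8 T-like cells 501 and 446 CPM and CD4 T-like cells 444 and 450 CPM. Relative to CD4 T-like cells of the same library, Ltb was 1.54-fold (1.49 to 1.59) and 1.23-fold (1.18 to 1.29) higher in B-like cells, 1.81-fold (1.68 to 1.95) and 1.53-fold (1.36 to 1.71) higher in Treg-like cells, and 2.91-fold (2.67 to 3.17) and 2.13-fold (1.89 to 2.40) higher in NK/ILC1-like cells.

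Nearly all ILC3/LTi-like cells held an Ltb transcript even at low depth. After each cell was thinned to 2000 UMIs, 96.5% (93.5 to 98.4) of ILC3/LTi-like cells in the control had at least 1 Ltb UMI, and 93.2% (89.0 to 96.1) in the Flcn iΔEC library, compared with 54.5% of CD4 T-like cells in both libraries and 67.2% and 63.5% of B-like cells. LEC-like cells, which should lack Ltb, had a share of 5.95% and 3.88% at that depth. Without thinning, 99.2% of control and all 222 Flcn iΔEC ILC3/LTi-like cells (median 8471 and 7433 UMIs) held one, as did 15.5% and 17.4% of LEC-like cells (median 14166 and 23254 UMIs). Of all Ltb UMIs of a library, a share that also depends on how many cells of each class were captured, B-like cells carried 34.4% and 30.6%, CD4 T-like cells 17.2% and 11.99%, ILC3/LTi-like cells 13.5% and 15.5%, and the HEV-like class, with its lymphoid transcripts, 9.17% and 15.5%.

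Lta, which encodes the subunit shared by soluble and membrane lymphotoxin, had its highest level in the ILC3/LTi-like class. It had 516 UMIs there in the control, at 218 CPM (199 to 237), and 169 UMIs in the Flcn iΔEC library, at 88.3 CPM (75.5 to 103). No other class overlapped these intervals. NK/ILC1-like cells had 25.0 CPM (12.5 to 44.7) and 21.6 CPM (8.69 to 44.5), B-like cells 23.1 CPM (20.9 to 25.4) and 17.8 CPM (15.4 to 20.4), CD4 T-like cells 12.7 and 10.7 CPM, and CD8 T-like cells 6.54 and 3.33 CPM. B-like cells exceeded CD4 T-like cells 1.82-fold (1.52 to 2.19) and 1.67-fold (1.24 to 2.27). LEC-like cells had 0 UMIs in the control, where 3 counts would have given 1.90 CPM, and 0.621 CPM in the Flcn iΔEC library. Of all Lta UMIs of a library, ILC3/LTi-like cells carried 32.4% and 24.0%, the far more numerous B-like cells 25.5% and 29.0%, HEV-like cells 14.4% and 19.7% and CD4 T-like cells 10.8% and 8.38%. The highest level was thus in ILC3/LTi-like cells, while most of the UMIs lay in other classes.

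Lta and Ltb lie 6.85 kb apart on mouse chromosome 17 (GRCm38, the build called mm10 in the processing notes), with Lta on the minus strand at chr17:35203165-35205351 and Ltb on the plus strand at chr17:35194439-35196320. Each gene overlaps a microRNA gene on its own strand (Mir6974 and Mir6973a), so reads there could come from either. Because these neighbours were both highest in the ILC3/LTi-like class but differed in how wide their expression was, the 250 bases before their transcription starts are shown, as RefSeq gives them on GRCm38.p6, each 5′ to 3′ on the strand of the gene. The Lta stretch is chr17:35205352-35205601 on the minus strand and the Ltb stretch is chr17:35194257-35194506 on the plus strand. Capitals mark a match to the kappaB motif GGGNNTTTCC, to which NF-kB dimers can bind, on either strand. This motif was chosen after the sequences had been seen. It occurs in 464 of the 32851 promoters of the same length, or 1.41%, whereas the looser GGGNNNNNCC occurs in 45.8%. An entry was found for 8 members, all but Relb and Il7. Of these, 2 held the stricter motif, Ltb and Nfkb2, and 7 the looser one.
Lta promoter: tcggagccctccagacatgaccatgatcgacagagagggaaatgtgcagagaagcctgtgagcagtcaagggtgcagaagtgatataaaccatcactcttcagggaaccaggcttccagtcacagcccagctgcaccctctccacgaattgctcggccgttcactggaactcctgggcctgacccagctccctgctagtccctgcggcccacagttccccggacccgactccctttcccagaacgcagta
Ltb promoter: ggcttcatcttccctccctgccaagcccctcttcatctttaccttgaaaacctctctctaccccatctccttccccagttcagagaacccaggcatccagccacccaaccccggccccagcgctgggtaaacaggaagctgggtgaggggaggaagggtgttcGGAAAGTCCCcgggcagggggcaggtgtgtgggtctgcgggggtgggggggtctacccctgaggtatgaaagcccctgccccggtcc
The match in the Ltb stretch begins 87 bases before the RefSeq transcription start, which lies inside the gene as placed above from GENCODE. The letters GGGNNTTTCC do not occur in the stretch shown for Lta.

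Tnfsf11, encoding RANK ligand, was at 129 CPM (115 to 144) in the ILC3/LTi-like cells of the control and at 151 CPM (134 to 169) in those of the Flcn iΔEC library, its highest level in both libraries. Treg-like cells had 47.1 CPM (34.7 to 62.5) and 37.2 CPM (22.4 to 58.0), which was 6.14-fold (4.27 to 8.72) and 5.87-fold (3.17 to 10.5) over CD4 T-like cells at 7.67 and 6.34 CPM. Tnfsf11 thus separated Treg-like from CD4 T-like cells in both libraries. NK/ILC1-like cells had 47.7 CPM on 21 UMIs and 18.5 CPM on 6 UMIs, and gamma delta T-like cells 50.2 CPM on 21 UMIs and 16.4 CPM on 5 UMIs. B-like cells were near 0, at 0.739 and 0.262 CPM, although they made up the largest class. Stromal cells had 9 UMIs at 20.6 CPM (9.40 to 39.0) in the control and 0 UMIs in the Flcn iΔEC library. After thinning, 18.5% (14.0 to 23.8) and 15.4% (10.9 to 20.9) of ILC3/LTi-like cells held a Tnfsf11 UMI, against 1.26% and 1.245% of CD4 T-like and 0.210% and 0.0746% of B-like cells. The unthinned shares were 38.3% and 35.1% in ILC3/LTi-like and 0.540% and 0.222% in B-like cells (median 6276 and 7765 UMIs). The gene lies at chr14:78277445-78308043 on the minus strand.

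Within the ILC3/LTi-like class, no link between Lta and Tnfsf11 in single cells was detectable at this depth. In thinned control cells, 22.9% (12.03 to 37.3) of those with a Tnfsf11 UMI also held an Lta UMI, compared with 23.2% (17.7 to 29.5) of those without. The Flcn iΔEC values were 5.88% (0.721 to 19.7) and 11.8% (7.56 to 17.4). Of control cells with a UMI of Il22, the cytokine of activated ILC3s, 33.3% (20 to 49.0) held Tnfsf11, compared with 15.4% (10.9 to 21.0) of the others. In the Flcn iΔEC library the shares were 19.0% (9.87 to 31.4) and 14.2% (9.22 to 20.5). The intervals overlapped in both libraries, in the control only from 20% to 21.0%, and such an overlap does not show that the shares are equal.

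**Figure D2:**
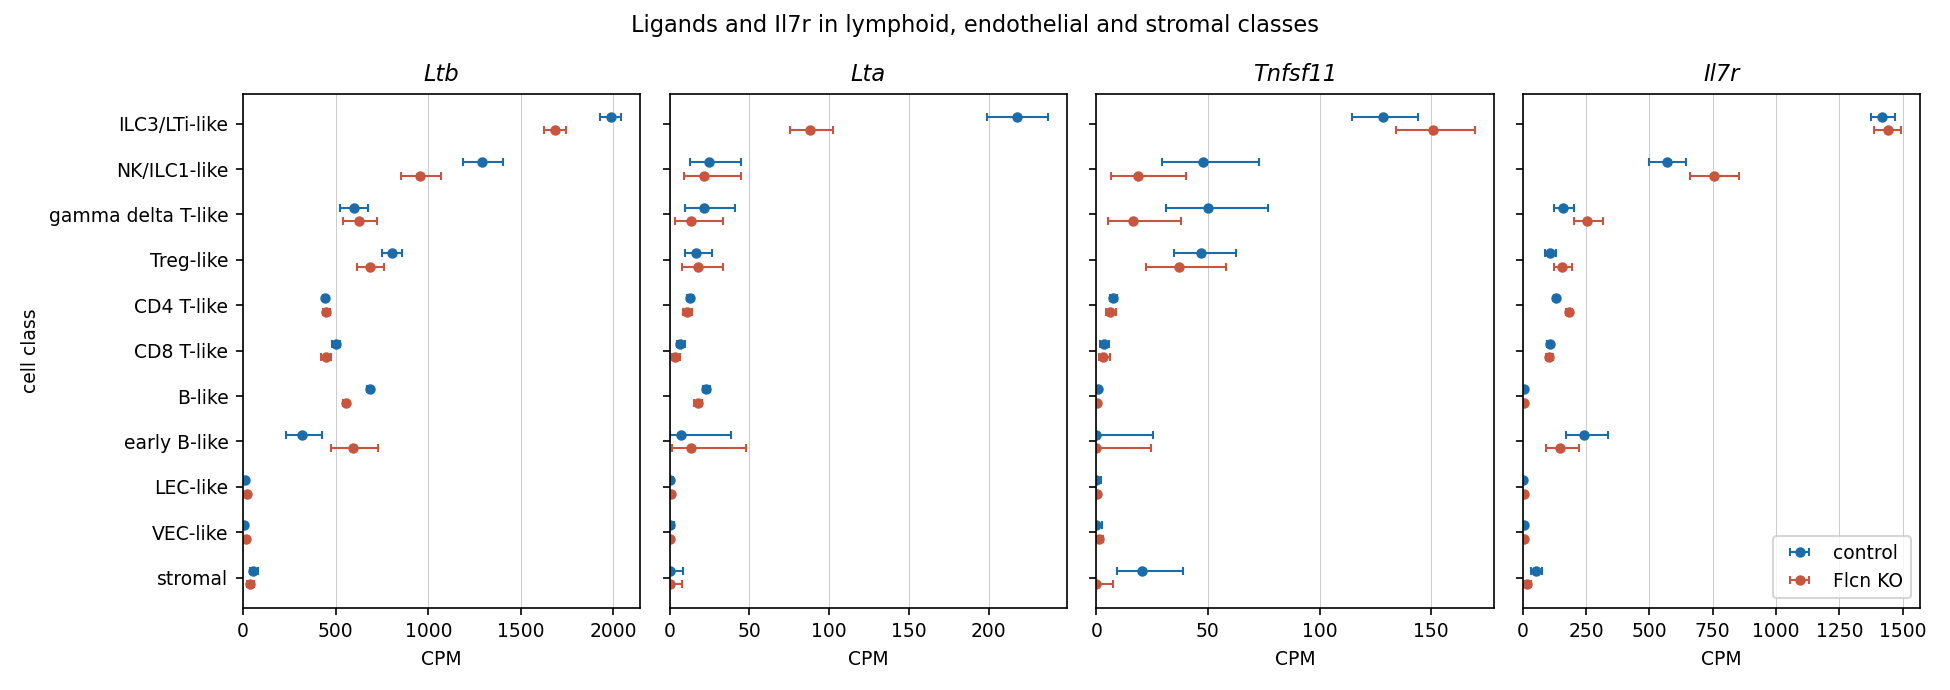
Level of Ltb, Lta, Tnfsf11 and Il7r (CPM, linear axes from 0) in lymphoid, endothelial and stromal classes of the control (blue) and Flcn iΔEC (red) library. Points are summed levels, bars their 95% counting intervals, and the ILC3/LTi-like class leads in all 4 panels, with a gap between the libraries for Lta (218 and 88.3 CPM).

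Il7, the survival cytokine of LTi cells and lymphocytes, was a gene of lymphatic endothelium in these cells. LEC-like cells had 79 UMIs at 49.95 CPM (39.6 to 62.3) in the control and 214 UMIs at 26.6 CPM (23.1 to 30.4) in the Flcn iΔEC library, and they held 66.4% and 77.3% of all Il7 UMIs of their libraries. Blood endothelial cells, here VEC-, AEC- and capillary-like cells together, were lower 111-fold (29.8 to 934) and 20.6-fold (10.7 to 45.8), and Il7 was at 0 UMIs in VEC-like cells of both libraries, where 3 counts would have given 2.03 and 0.937 CPM. Sinus LEC-like cells had 12.7 CPM (5.80 to 24.1) and 5.95 CPM (2.72 to 11.3) on 9 UMIs each, so that LEC-like cells exceeded them 3.94-fold (1.97 to 8.93) and 4.46-fold (2.31 to 9.89). Cycling endothelial cells had 7.63 and 8.40 CPM. Stromal cells had 2 and 6 UMIs, at 4.57 CPM (0.553 to 16.5) and 12.2 CPM (4.49 to 26.6). In B-, CD4 T- and CD8 T-like cells the count was 0 in both libraries.

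The LEC-like class was made of 3 clusters, and Il7 differed among them. The cluster led by Lcn2 and Fgl2 (45 and 161 cells) had 59.0 and 31.8 CPM of Il7, the cluster led by Lyve1 and Reln, genes of lymphatic capillaries (17 and 25 cells), 65.4 and 41.2 CPM, and the cluster led by Aqp8 (22 and 124 cells) 24.2 CPM (12.1 to 43.3) and 16.8 CPM (12.6 to 21.9). In each library the Aqp8 cluster was the lowest of them, and its interval lay below that of the Lcn2 and Fgl2 cluster in both. Because Il7 counts were low, only 5.95% and 4.21% of LEC-like cells held a UMI after thinning, and 53.6% and 40.3% without it. Il7 lies at chr3:7569994-7613760 on the minus strand and overlaps Gm16685 on the other strand.

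Ltbr, the receptor of membrane lymphotoxin, was a gene of endothelial, stromal and epithelial cells and was nearly absent from T and B cells. VEC-like cells had the highest level over both libraries together, 68.4 CPM (55.7 to 83.1) in the control and 80.3 CPM (70.8 to 90.7) in the Flcn iΔEC library. Capillary-like cells had 66.8 and 75.4 CPM, AEC-like cells 56.2 and 57.9 CPM, HEV-like cells 47.1 and 48.3 CPM and LEC-like cells 45.5 and 38.1 CPM, and the intervals of neighbours in this order overlapped in the control. VEC-like cells exceeded LEC-like cells 1.503-fold (1.10 to 2.06) and 2.11-fold (1.78 to 2.50). Stromal cells had 48.0 CPM (29.7 to 73.3) and 26.5 CPM (14.1 to 45.3), and epithelial cells 47.7 and 36.9 CPM. CD4 T-like cells were at 0.295 and 0.362 CPM on 4 and 2 UMIs and B-like cells at 0.171 and 0.262 CPM on 3 UMIs each. The ILC3/LTi-like class, which carries the ligand, was at 9.70 CPM (6.15 to 14.6) and 6.27 CPM (3.24 to 10.9). Ltbr was measured with at least 50 UMIs in all 7 endothelial classes, and in none of them did the interval of the ratio between libraries lie wholly above or below 1.

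Tnfrsf11a, the gene of RANK, was highest in lymphatic cells among the endothelial classes. LEC-like cells had 63.9 CPM (52.0 to 77.6) and 45.2 CPM (40.6 to 50.1), and sinus LEC-like cells 47.9 CPM (33.2 to 66.9) and 56.9 CPM (45.5 to 70.2), with intervals that overlapped in both libraries. In LEC-like cells it was 3.63-fold (2.34 to 5.82) and 4.02-fold (2.85 to 5.83) over VEC-like cells at 17.6 and 11.2 CPM, and 14.2-fold (6.94 to 33.8) and 19.9-fold (9.58 to 49.96) over AEC-like cells at 4.50 and 2.27 CPM. Against VEC-, AEC- and capillary-like cells together it was 6.61-fold (4.58 to 9.68) and 5.85-fold (4.39 to 7.94) higher. HEV-like cells had 18.4 and 24.3 CPM, cycling endothelial cells 18.5 and 28.4 CPM and capillary-like cells 7.51 and 15.7 CPM. The 3 LEC-like clusters had 69.2, 52.8 and 65.4 CPM in the control and 48.4, 39.9 and 50.2 CPM in the Flcn iΔEC library, in the order Lcn2 and Fgl2, Aqp8, and Lyve1 and Reln, and these intervals overlapped within each library. ILC3/LTi-like cells also held the receptor transcript, at 33.3 CPM (26.4 to 41.5) and 18.8 CPM (13.2 to 26.0), whereas CD4 T-like cells had 1 and 0 UMIs and B-like cells 5 and 3. Epithelial cells had 24.8 and 20.2 CPM. The gene lies at chr1:105780718-105847981 on the plus strand.

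Tnfrsf1a, the first receptor of tumor necrosis factor and of soluble lymphotoxin, was highest in blood rather than lymphatic endothelium. Capillary-like cells had 180 CPM (157 to 206) and 151 CPM (124 to 182), VEC-like cells 169 and 148 CPM and AEC-like cells 148 and 123 CPM. LEC-like cells had 55.6 CPM (44.6 to 68.6) and 30.5 CPM (26.8 to 34.6), 0.340 (0.269 to 0.424) and 0.223 (0.193 to 0.256) of the blood endothelial level. In 2 of the 3 LEC-like clusters it was lower still, at 17.6 and 14.6 CPM in the Aqp8 cluster and 24.5 and 21.5 CPM in the Lyve1 and Reln cluster, against 83.9 and 43.3 CPM in the Lcn2 and Fgl2 cluster. HEV-like cells lay between blood and lymphatic cells at 112 CPM (102 to 122) and 104 CPM (95.8 to 112), and stromal cells had 52.5 and 85.6 CPM. Among lymphocytes the highest value was in NK/ILC1-like cells, at 38.6 and 33.96 CPM. Gamma delta T-like cells had 14.3 and 9.81 CPM on 6 and 3 UMIs, and CD4 T-like cells 13.1 and 10.7 CPM. B-like cells had 0.852 and 0.698 CPM. Tnfrsf1a (chr6:125349362-125362484, plus strand) and Ltbr (chr6:125306571-125313885, minus strand) lie 35.5 kb apart.

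**Figure D3:**
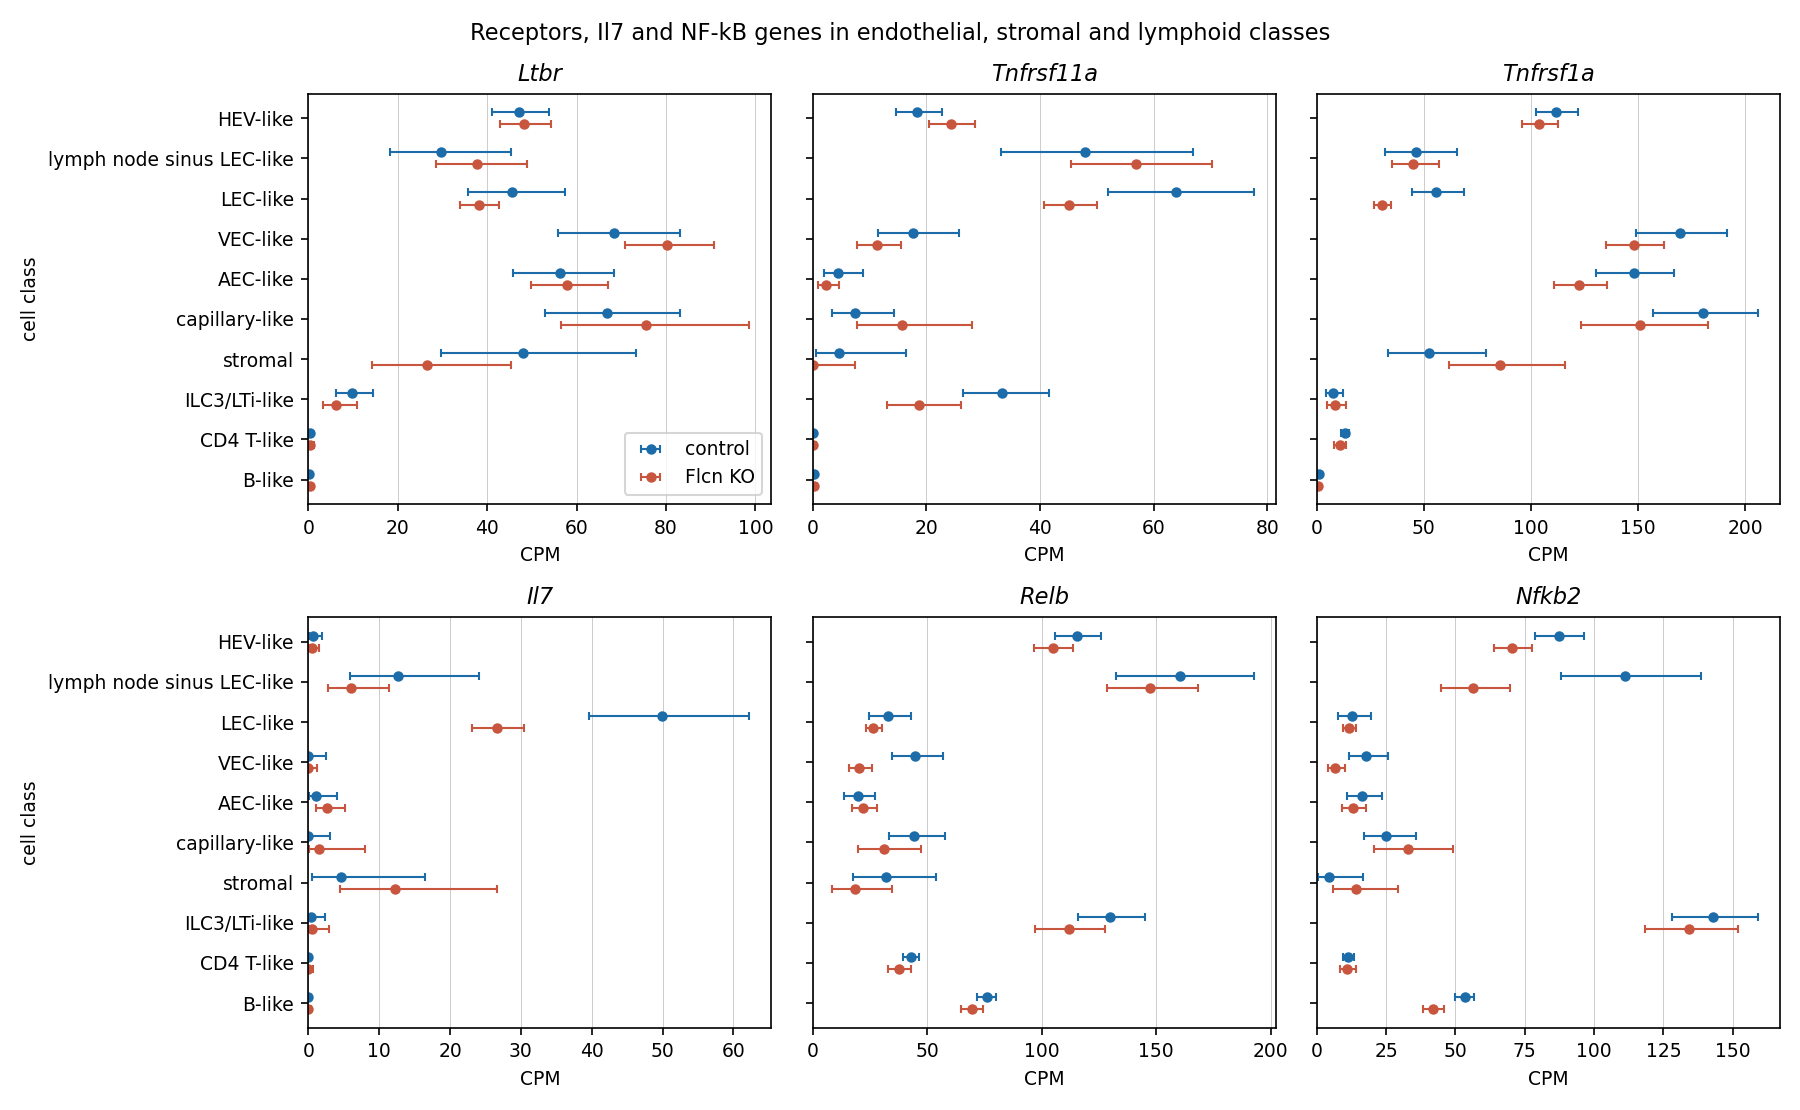
Level of the receptor genes, Il7 and the NF-kB genes (CPM, linear axes from 0) in endothelial, stromal and lymphoid classes of the control (blue) and Flcn iΔEC (red) library. Points are summed levels and bars 95% counting intervals. Tnfrsf11a and Il7 lie furthest right in lymphatic classes, Tnfrsf1a in blood endothelial classes (180 CPM in control capillary-like cells), and, of the 10 classes drawn, Relb and Nfkb2 in ILC3/LTi-like, HEV-like and sinus LEC-like cells.

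Il7r, which encodes the chain of the interleukin 7 receptor that binds the cytokine, was highest in ILC3/LTi-like cells at 1420 CPM (1373 to 1469) and 1440 CPM (1386 to 1494). NK/ILC1-like cells had 568 CPM (500 to 643) and 753 CPM (662 to 854), 4.39-fold (3.83 to 5.02) and 4.14-fold (3.59 to 4.77) over CD4 T-like cells at 129 and 182 CPM. Early B-like cells had 243 CPM (169 to 338) and 146 CPM (91.8 to 222), gamma delta T-like cells 160 and 255 CPM, Treg-like cells 108 and 155 CPM and CD8 T-like cells 107 and 104 CPM. B-like cells were at 3.13 and 3.32 CPM. Within the B lineage the receptor thus separated early B-like from B-like cells 77.7-fold (49.4 to 121) and 44.1-fold (24.9 to 76.6), and CD4 T-like exceeded B-like cells 41.3-fold (31.6 to 55.1) and 54.8-fold (39.6 to 77.9). After thinning, 90.7% (86.5 to 94.0) and 90.9% (86.3 to 94.4) of ILC3/LTi-like cells held an Il7r UMI, against 0.671% and 0.746% of B-like cells. The unthinned shares were 98.5% and 99.5% and, in B-like cells, 1.66% and 2.001%. Il7r lies at chr15:9505788-9530176 on the minus strand.

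Relb and Nfkb2, the pair of non-canonical NF-kB genes, were both higher in ILC3/LTi-like, HEV-like and sinus LEC-like cells than in VEC-, AEC- and LEC-like cells. Over both libraries together Relb was highest in sinus LEC-like cells, at 161 CPM (132 to 193) and 148 CPM (129 to 168). It had 130 CPM (116 to 145) and 112 CPM (97.3 to 128) in ILC3/LTi-like and 116 CPM (106 to 126) and 105 CPM (96.8 to 114) in HEV-like cells. VEC-like cells had 44.7 and 20.3 CPM, LEC-like cells 32.9 and 26.6 CPM and AEC-like cells 19.7 and 22.0 CPM. Capillary-like cells had 44.2 and 31.3 CPM and cycling endothelial cells 58.3 and 23.8 CPM. Sinus LEC-like cells exceeded LEC-like cells 4.88-fold (3.49 to 6.92) and 5.55-fold (4.58 to 6.73), and HEV-like exceeded VEC-like cells 2.58-fold (1.997 to 3.39) and 5.17-fold (4.00 to 6.78). B-like cells had 76.0 and 69.4 CPM, 1.77-fold (1.604 to 1.95) and 1.84-fold (1.58 to 2.16) over CD4 T-like cells. Treg-like cells had 82.4 CPM (65.8 to 102) and 117 CPM (89.6 to 151), the latter beside the ILC3/LTi-like and HEV-like levels of that library. Early B-like cells had 90.2 CPM (48.1 to 154) on 13 UMIs and 173 CPM (113 to 254) on 26 UMIs, so that their interval overlapped that of sinus LEC-like cells in each library. Myeloid cells had 130 and 92.0 CPM, and in 1 of their clusters, led by Ccl5 and Zmynd15 (29 and 17 cells of a median of 1341 and 1354 UMIs), Relb reached 483 CPM (306 to 724) and 473 CPM (258 to 793) on 23 and 14 UMIs.

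Nfkb2 was highest in ILC3/LTi-like cells at 143 CPM (128 to 159) and 134 CPM (118 to 152), 12.7-fold (10.4 to 15.4) and 12.2-fold (9.16 to 16.4) over CD4 T-like cells at 11.3 and 11.04 CPM. Sinus LEC-like cells had 111 CPM (88.1 to 139) and 56.2 CPM (44.9 to 69.5), HEV-like cells 87.2 CPM (78.8 to 96.3) and 70.5 CPM (63.9 to 77.7), B-like cells 53.3 and 41.8 CPM, and early B-like cells 55.5 CPM (24.0 to 109) and 66.6 CPM (31.9 to 122). In VEC-like, AEC-like and LEC-like cells it stayed between 6.56 and 17.6 CPM in both libraries, so that HEV-like cells exceeded VEC-like cells 4.95-fold (3.33 to 7.67) and 10.8-fold (6.94 to 17.6). Capillary-like cells had 25.0 CPM (16.9 to 35.7) and 32.7 CPM (20.8 to 49.1), the latter overlapping the interval of sinus LEC-like cells. Cycling endothelial cells had 29.4 and 9.80 CPM. Relb (chr7:19606217-19629438, minus strand) overlaps no other gene, whereas Nfkb2 (chr19:46304320-46312385, plus strand) overlaps Psd and AC114539.1 on the other strand. Nfkb2 was the other member whose promoter entries held the stricter kappaB motif, in 2 of its 3 entries. Those are shown with the match in capitals, for chr19:46304487-46304736 and chr19:46305680-46305929 on the plus strand of GRCm38.p6 (RefSeq). The matches begin 11 and 225 bases before these RefSeq starts, which lie inside the gene as placed above from GENCODE. Left and right in the labels below name the lower and the higher coordinate. Each stretch ends just before its start.
Nfkb2 promoter, start at the left: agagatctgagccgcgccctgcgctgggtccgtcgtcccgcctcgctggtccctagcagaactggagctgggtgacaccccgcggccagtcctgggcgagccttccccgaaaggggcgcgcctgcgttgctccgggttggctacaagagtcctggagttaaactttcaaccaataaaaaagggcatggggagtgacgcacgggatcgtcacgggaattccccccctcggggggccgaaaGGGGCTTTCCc
Nfkb2 promoter, start at the right: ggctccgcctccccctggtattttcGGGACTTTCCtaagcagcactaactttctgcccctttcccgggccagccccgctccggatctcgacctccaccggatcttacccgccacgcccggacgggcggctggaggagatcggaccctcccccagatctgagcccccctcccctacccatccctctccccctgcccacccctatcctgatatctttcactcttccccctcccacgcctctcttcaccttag
The third entry, chr19:46305445-46305694, has no such match, and the rest of the sequence between the stretches shown was not searched. A match is a description of the letters only.

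In the HEV-like class Ltb, Lta, Tnfsf11 and Il7r were lower in cells without UMIs of Il22 and Il23r, whereas the levels of Relb, Nfkb2, Ltbr and Tnfrsf1a were mostly closer to those of the whole class. A UMI of Il22 or Il23r was found in 45 of 96 control (46.9%) and 76 of 130 Flcn iΔEC (58.5%) HEV-like cells. In HEV-like cells without one, Ltb was at 543 CPM against 709 in the whole class in the control and at 387 against 546 CPM in the Flcn iΔEC library. Il7r was at 279 against 440 and at 280 against 409 CPM, Tnfsf11 at 27.6 against 48.0 and at 32.7 against 37.6 CPM, and Lta at 33.0 against 50.9 and at 8.17 against 23.6 CPM. All 4 were therefore lower without those cells, although for Tnfsf11 in the Flcn iΔEC library the counting interval (25.4 to 41.4) included the level of the whole class. By comparison, Relb was at 99.6 against 116 and at 106 against 105 CPM, Nfkb2 at 71.45 against 87.2 and at 67.3 against 70.5 CPM, Ltbr at 40.1 against 47.1 and at 52.4 against 48.3 CPM, and Tnfrsf1a at 113 against 112 and at 118 against 104 CPM. Tnfrsf11a was at 11.9 against 18.4 CPM on 22 UMIs in the control and at 22.6 against 24.3 CPM in the Flcn iΔEC library. Il7 had only 3 UMIs in the class in each library. This selection was made after the data had been seen, and the cells without such UMIs were also of lower depth (median 29339 and 33228 UMIs against 36635 and 37427).

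In the 20 control and 54 Flcn iΔEC sinus LEC-like cells without UMIs of Il22 and Il23r, Ltb was at 966 and 434.5 CPM. Il7r was at 387 and 50.7 CPM in them. The whole class had 1088 and 487 CPM of Ltb and 532.5 and 165 CPM of Il7r. A stricter selection removed cells with a UMI of Ptprc, Cd3e, Cd79a, Cd79b or Trbc2 as well, so that lymphocyte genes are lower in part by construction. The 11 control and 30 Flcn iΔEC sinus LEC-like cells that remained had 0 UMIs of Il7r and of Tnfsf11 in both libraries, with median depths of 3764 and 4438 UMIs. They kept Ltb at 299 CPM and 263 CPM (28 and 105 UMIs), Relb at 192 CPM (114 to 303) and 87.8 CPM (61.2 to 122), and Nfkb2 at 107 CPM (51.2 to 196) and 72.8 CPM (48.7 to 105). In the 6 and 9 HEV-like cells that remained, Tnfsf11 was at 0 UMIs in both libraries, Lta at 0 and 1 UMIs and Il7r at 0 and 7 UMIs (24.8 CPM, 9.98 to 51.1, in the Flcn iΔEC library). Ltb was at 83.9 CPM and 95.7 CPM in them, Relb at 116 CPM (68.9 to 184) and 138 CPM (98.3 to 189) and Nfkb2 at 136 CPM (83.9 to 207) and 81.5 CPM (51.7 to 122). Relb and Nfkb2 were thus also found in HEV-like and sinus LEC-like cells without those lymphoid UMIs. Where the lymphoid UMIs of these classes came from was not tested. The doublet caller marked 1 HEV-like and 1 sinus LEC-like cell, both in the control.

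**Figure D4:**
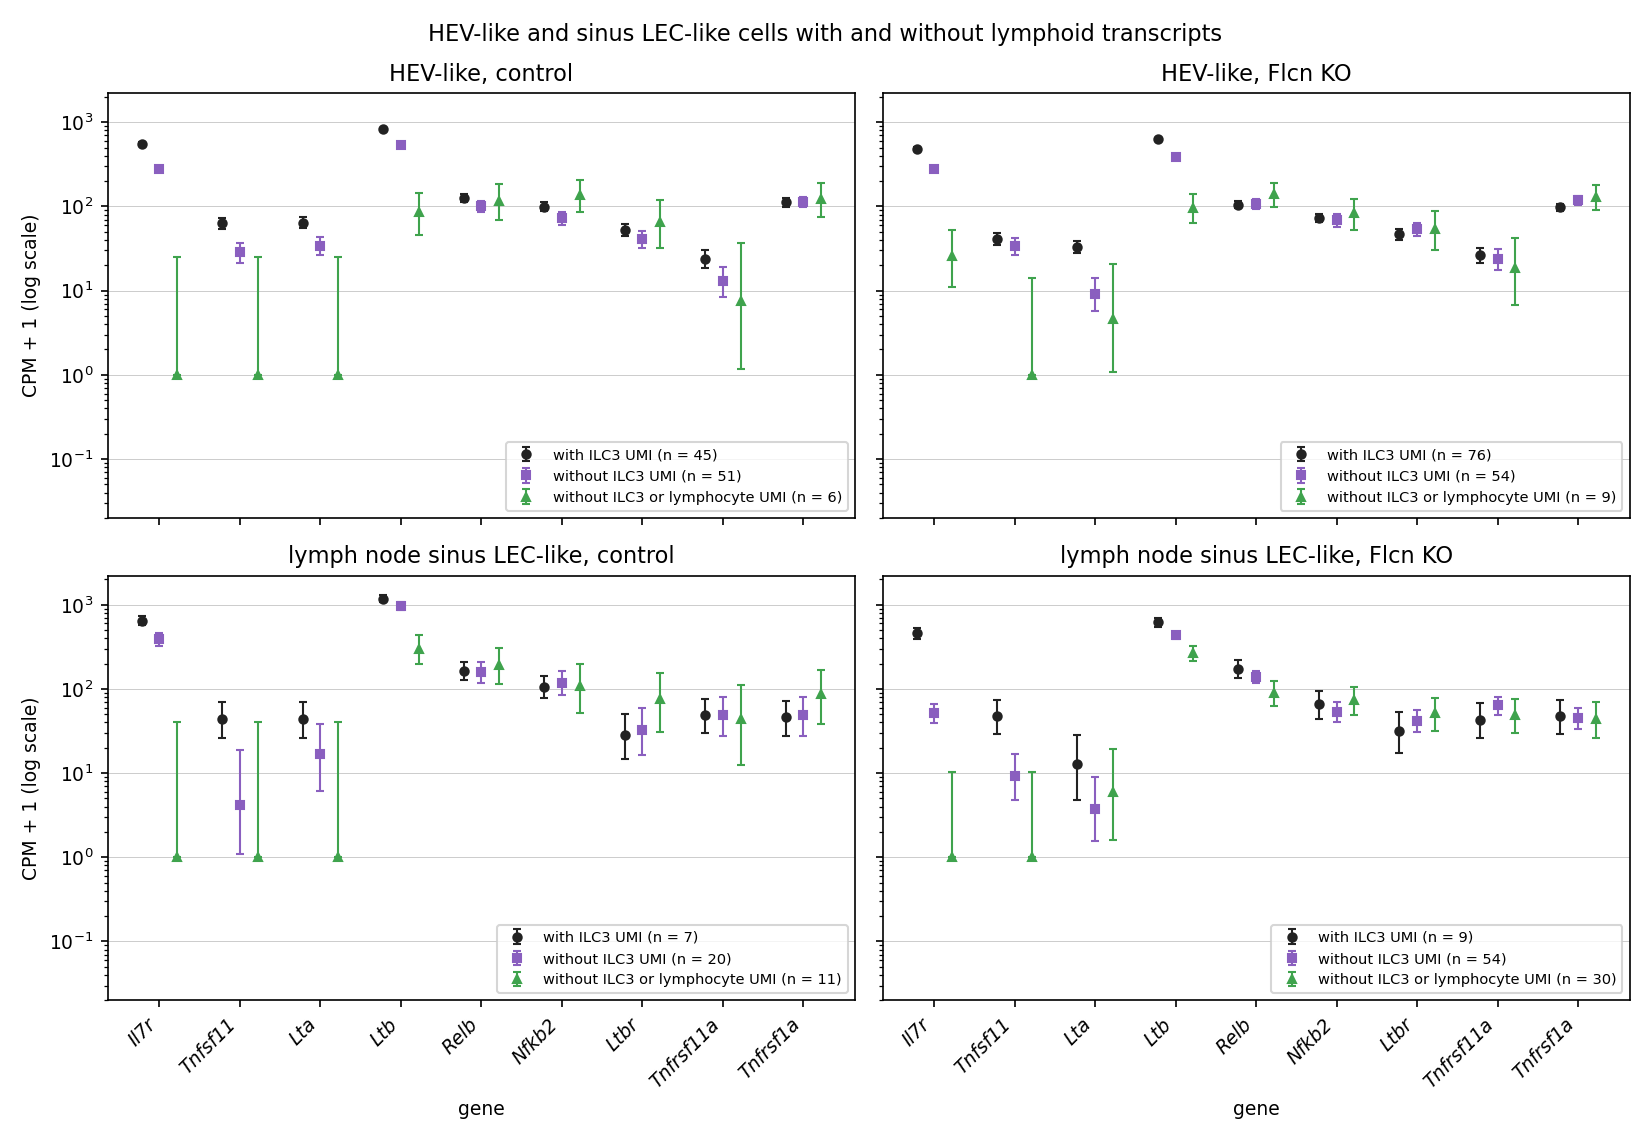
Members in HEV-like (top) and sinus LEC-like (bottom) cells of each library, as CPM + 1 on a log axis with 95% counting intervals. Black circles are cells with a UMI of Il22 or Il23r, purple squares cells without one, and green triangles cells that also lack UMIs of Ptprc, Cd3e, Cd79a, Cd79b and Trbc2. Il7r, Tnfsf11, Lta and Ltb drop from black to green. Because the sets were divided by lymphoid UMIs, a drop of lymphocyte genes is in part fixed by that division. Ltb, Relb, Nfkb2, Ltbr and Tnfrsf1a have UMIs in all 3 sets of cells. Relb falls from 173 CPM in black to 87.8 CPM in green in Flcn iΔEC sinus LEC-like cells.

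Between the libraries, Lta was the member that differed most in its leading class. Its level in ILC3/LTi-like cells was 218 CPM in the control and 88.3 CPM in the Flcn iΔEC library, 2.47-fold lower (2.07 to 2.95) in the latter. After thinning, 23.2% (18.2 to 28.8) of ILC3/LTi-like cells held an Lta UMI in the control against 10.9% (7.12 to 15.8) in the Flcn iΔEC library, and 48.1% and 34.2% without thinning. With fewer than 1 Lta UMI per thinned cell on average, this share follows the level and is no separate measurement. With 20 dimensions in the clustering, which left 202 and 169 cells in the class, the log2 ratio was -1.78 instead of -1.30. In B-like cells Lta was 1.30-fold lower (1.09 to 1.54) in the Flcn iΔEC library, and in the HEV-like class, which held lymphoid transcripts, 2.15-fold lower (1.74 to 2.68). Of the HEV-like cells, those that kept the name at a resolution of 1.6 had Lta at 42.3 and 26.1 CPM, 1.62-fold lower (1.24 to 2.12), whereas the cluster led by Ccl4, with little Glycam1, had 72.7 and 19.2 CPM, 3.78-fold lower (2.56 to 5.68). Per 100 UMIs of Il22 and Il23r together, Lta had 39.85 UMIs in control and 16.8 in Flcn iΔEC ILC3/LTi-like cells, and 32.95 and 11.4 UMIs in HEV-like cells.

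Of the 7 members with at least 50 UMIs in ILC3/LTi-like cells, Lta alone passed a 2-fold ratio between libraries, beside 1.53% of the 7325 genes tested there in either direction. Tnfrsf11a was 1.77-fold lower (1.18 to 2.71) in the Flcn iΔEC library on 79 and 36 UMIs, and Ltb 1.18-fold lower (1.13 to 1.23). The ratios of Flcn iΔEC to control for Tnfsf11 (1.17, 0.996 to 1.38), Il7r (1.01, 0.963 to 1.07), Nfkb2 (0.939, 0.795 to 1.11) and Relb (0.861, 0.719 to 1.03) had intervals that included 1. The direction of Tnfsf11 turned with 20 dimensions, to a log2 ratio of -0.21. No member passed 2-fold in NK/ILC1-like (0 of 3, background 3.28%), gamma delta T-like (0 of 2, 1.84%), Treg-like (0 of 5, 2.54%), CD4 T-like (0 of 7, 1.8%), CD8 T-like (0 of 5, 1.29%), cycling T (0 of 3, 2.3%), B-like (0 of 5, 2.41%) and early B-like cells (0 of 2, 3.98%) or in cycling leukocytes (0 of 6, 2.53%).

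Smaller differences in lymphoid cells went opposite ways for Ltb and Il7r. Over 10 lymphoid and cycling leukocyte classes, the interval of the Ltb ratio lay below 1 in 6, namely ILC3/LTi-like, NK/ILC1-like, Treg-like, CD8 T-like, cycling T and B-like cells, and above 1 in early B-like cells. That of Il7r lay above 1 in 6, namely NK/ILC1-like, gamma delta T-like, Treg-like, CD4 T-like and cycling T cells and cycling leukocytes, and below 1 in none. In CD4 T-like cells Il7r was 1.41-fold higher (1.30 to 1.52) in the Flcn iΔEC library, at 182 CPM against 129 CPM. Ltb in B-like cells was 1.23-fold lower (1.197 to 1.27), at 554 CPM against 683 CPM. The share of all genes with such intervals is not given here, and with many UMIs an interval excludes 1 at a small ratio. Over these classes the median log2 ratio of all genes lay between -0.098 (B-like) and 0.021 (Treg-like). Ltb stood at -0.303 in B-like and Il7r at 0.493 in CD4 T-like cells, where the median was -0.061. These classes come from the same pair of libraries and are not independent.

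**Figure D5:**
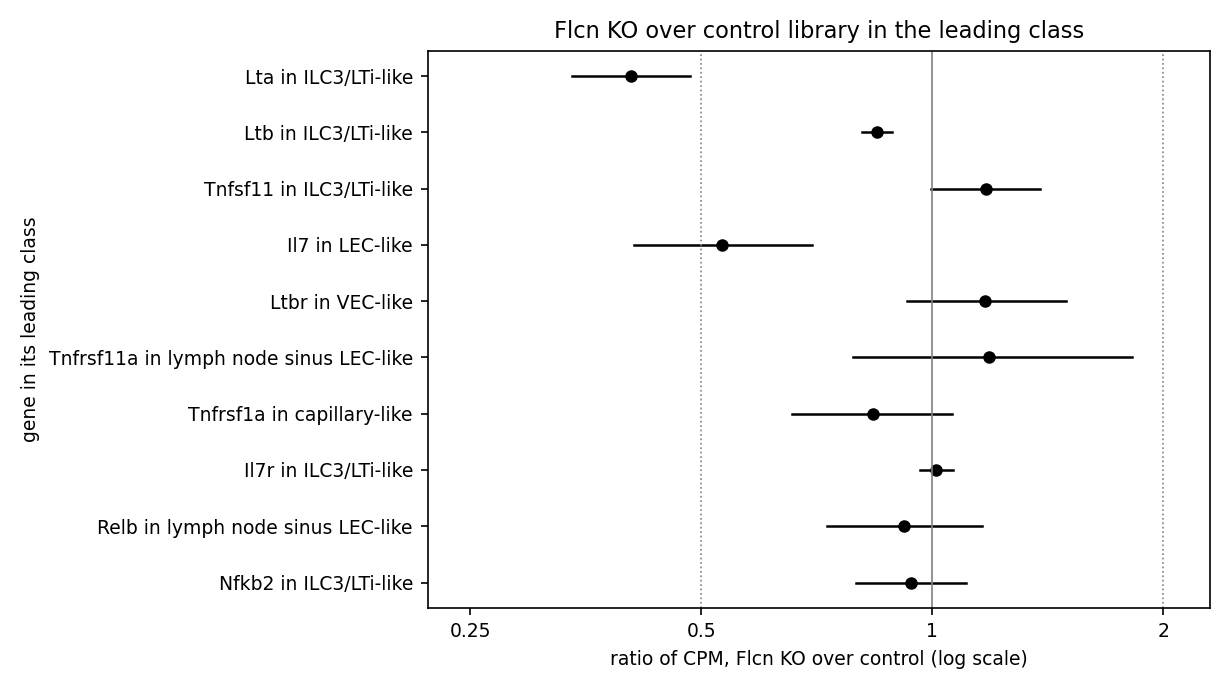
Ratio of the level in the Flcn iΔEC library to that in the control library (log axis) for each member in the class where it was highest over both libraries together, with 95% counting intervals. The solid line marks equal levels and the dotted lines 2-fold. Lta lies beyond the lower dotted line, Il7 and Ltb lie below 1, and the other intervals include 1. Tnfrsf11a is drawn in sinus LEC-like cells (1.19, 0.790 to 1.82), while in LEC-like cells, which led in the control, its ratio was 0.707 (0.566 to 0.891).

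In LEC-like cells Il7 was 1.88-fold lower (1.43 to 2.45) in the Flcn iΔEC library, Tnfrsf1a 1.82-fold lower (1.41 to 2.33) and Tnfrsf11a 1.41-fold lower (1.12 to 1.77). The median log2 ratio of all genes tested in this class was -0.21, and 6 of 7 members tested were lower. No member passed 2-fold, beside 10.4% of all genes. Il7 was lower in each of the 3 LEC-like clusters (59.0 and 31.8, 24.2 and 16.8, 65.4 and 41.2 CPM), with intervals that did not overlap in the Lcn2 and Fgl2 cluster. The make-up of the class differed, since the Aqp8 cluster, lowest in Il7, held 22 of 84 control and 124 of 310 Flcn iΔEC cells. The median depth was 14166 UMIs in control and 23254 in Flcn iΔEC LEC-like cells. Ltb, a lymphocyte gene, was at 12.01 and 21.2 CPM in LEC-like cells, beside the B cell gene Cd79a at 6.96 and 32.6 CPM. Whether RNA of B cells contributed was not tested.

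Relb was 2.20-fold lower (1.54 to 3.15) in Flcn iΔEC than in control VEC-like cells, at 20.3 CPM (15.7 to 25.9) against 44.7 CPM (34.6 to 56.9), and Nfkb2 was lower as well, at 6.56 CPM on 21 UMIs against 17.6 CPM on 26 UMIs. Relb stayed past 2-fold in the 4 other clusterings that gave VEC-like cells (2.01- to 2.41-fold lower). Ltb passed 2-fold upwards there on 9 and 44 UMIs, but with 20 dimensions it turned to 6.35 and 0.970 CPM, lower in the Flcn iΔEC library, so that its direction depends on which cells are counted as VEC-like. With the clustering used here 2 of 5 members passed in VEC-like cells beside 7.74% of all genes. HEV-like cells differed less in Relb (116 and 105 CPM), and in them 1 of 9 members passed, Lta, beside 4.05%. That call was lost at a resolution of 1.6, with 20 dimensions (1.88-fold lower) and without doublets (1.81-fold lower), and it held without integration (2.40-fold lower). In sinus LEC-like cells 2 of 7 passed, Ltb and Il7r, both lower, beside 7.78%. Il22 and Il23r together were lower there as well (306 and 190 CPM), as was the summed ILC3 list (2599 and 1623 CPM), although that list was also lower in VEC-like (567 and 362 CPM) and AEC-like cells (706 and 421 CPM), where Il22 and Il23r were nearly absent. In the 20 and 54 sinus LEC-like cells without UMIs of Il22 and Il23r, both stayed past 2-fold. Their ratios of Flcn iΔEC to control were 0.450 (0.389 to 0.522) for Ltb and 0.131 (0.0936 to 0.182) for Il7r. In the 11 and 30 cells left by the stricter selection, the Ltb ratio was 0.882 (0.577 to 1.39). Il7r had no UMI in these in either library, so that no ratio could be formed. In cycling endothelial cells 4 of 7 passed, namely Ltb, Il7r, Relb and Nfkb2, all lower, beside 9.54%, and Il22 and Il23r moved the same way there (68.1 and 7.002 CPM together). These 4 stayed past 2-fold in the 5 other clusterings, but cycling endothelial cells were not divided by vessel type. No member passed in AEC-like (0 of 5, 6.24%, median log2 ratio of all genes -0.14) or capillary-like cells (0 of 4, 5.45%) or in stromal cells (0 of 1, 4.53%). Nfkb2 passed in myeloid cells (1 of 5, lower, 9.63%, but 1.98-fold without doublets) and Ltb in epithelial cells (1 of 5, lower, 14.8%).

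Between classes, the members were set beside all genes with the same rule, a ratio of at least 4-fold in both libraries. Of 7 members tested between ILC3/LTi-like and CD4 T-like cells, 4 were higher in the former (Lta, Tnfsf11, Il7r and Nfkb2), beside 6.47% of 7956 genes, and 0 were lower, beside 1.85%. Of 7 tested between LEC-like and blood endothelial cells, 2 were higher in LEC-like cells (Il7 and Tnfrsf11a), beside 1.59% of 9078 genes, and 0 were lower, beside 3.76%. The clustering did not use the members, but it used genes that vary with them.

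The rest of the pathway was described with a list of 46 further genes of ligands, receptors, signal transducers, NF-kB, interleukin 7 receptor signalling and known outputs, under the same 2-fold rule. In ILC3/LTi-like cells 0 of 34 measured genes passed in either direction, in Treg-like cells 0 of 22, and in HEV-like cells 1 of 39, Tnfrsf13c, a B cell receptor gene that was 4.98-fold lower (2.88 to 9.06) in the Flcn iΔEC library beside Cd79a at 122 and 31.3 CPM. In NK/ILC1-like cells 2 of 11 passed, both higher. They were Traf1, an adaptor of the receptor family (191 and 528 CPM), and the NF-kB gene Rel (104 and 232 CPM). In CD4 T-like cells 1 of 34 passed (Icam1, an adhesion molecule, 2.06-fold higher, 1.54 to 2.76) and in CD8 T-like cells 1 of 30 (the inhibitor gene Nfkbie, 2.36-fold higher, 1.65 to 3.398). In B-like cells 2 of 36 passed, both higher at low levels (Ccl21a, 4.55 and 20.7 CPM, and Cish, 1.76 and 3.58 CPM). In cycling leukocytes 1 of 34 passed, Ccl21a, 23.4-fold higher (11.1 to 59.0, 2.42 and 56.5 CPM). Ccl21a was highest in LEC-like cells (3925 and 5128 CPM), which numbered 84 and 310. Whether RNA of these LEC-like cells contributed to its level in leukocytes was not tested. The only other transducer or NF-kB gene past 2-fold in a lymphoid class was Nfkbib, lower in cycling T cells (42.5 and 18.1 CPM).

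The genes that passed 2-fold in endothelial cells included the outputs Ccl21a, Vcam1, Icam1 and Cxcl12. Ccl21a, the chemokine that draws T cells and dendritic cells into lymph nodes, led in LEC-like cells (3925 and 5128 CPM) and was also high in HEV-like cells (1928 and 2016 CPM). In sinus LEC-like cells it was 3.12-fold higher (2.72 to 3.60) in the Flcn iΔEC library (333 and 1038 CPM), and in cycling endothelial cells 3.95-fold higher (3.69 to 4.24, 514 and 2032 CPM). Vcam1, an adhesion molecule of organizer cells, was highest over both libraries together in sinus LEC-like cells, at 395 CPM (350 to 444) in the control and 89.3 CPM (74.8 to 106) in the Flcn iΔEC library, 4.42-fold lower (3.59 to 5.47). It was also lower in VEC-like cells (42 and 13.1 CPM) but 2.43-fold higher (1.92 to 3.10) in AEC-like cells (49.5 and 120 CPM). The AEC-like class was made up differently in the libraries, since a cluster led by Rgs5 and Igfbp3 held 46 of 101 control but 19 of 130 Flcn iΔEC cells. In the other AEC-like cluster, led by Gkn3 and Gja5 (55 and 111 cells), Vcam1 was 1.72-fold higher (1.35 to 2.20, 77.5 and 133 CPM), so that it kept its direction there but not the 2-fold size. In the Rgs5 and Igfbp3 cluster it had 2 and 7 UMIs.

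Icam1 was highest over both libraries together in VEC-like cells (214 and 186 CPM) and passed 2-fold upwards in AEC-like (75.3 and 224 CPM, and 2.42- and 3.12-fold higher within the Gkn3 and Gja5 and the Rgs5 and Igfbp3 cluster) and capillary-like cells (40.9 and 82.5 CPM). Cxcl12, a chemokine that retains leukocytes and B cell precursors, was lower in the Flcn iΔEC library wherever it passed. It had 1096 and 213 CPM in AEC-like cells (5.16-fold, 4.72 to 5.64). Within the clusters of that class the difference was smaller, with 2719 and 1379 CPM in the Rgs5 and Igfbp3 cluster (1.97-fold lower, 1.78 to 2.18) and 119 and 62.8 CPM in the Gkn3 and Gja5 cluster (1.89-fold lower, 1.498 to 2.39). It had 50.6 and 3.85 CPM in cycling endothelial cells (13.2-fold, 7.02 to 27.3), 418 and 141 CPM in stromal cells and 65 and 3 UMIs in VEC-like cells (47.0-fold, 15.4 to 234). The cycling endothelial cells were, again, not divided by vessel type. Of the genes of interleukin 7 receptor signalling and survival, Bcl2 was lower in sinus LEC-like (172 and 56.9 CPM) and cycling endothelial cells (62.6 and 22.4 CPM). The ILC3 list was lower in both as well (2599 and 1623, 946 and 332 CPM), and which cells the Bcl2 UMIs came from was not tested. Stat5b was 2.94-fold lower (1.62 to 5.43) in sinus LEC-like cells, and Stat5a 3.23-fold higher (1.45 to 8.45) in VEC-like cells on 7 and 49 UMIs. Cish, a feedback inhibitor of cytokine signalling, was 2.02-fold lower (1.27 to 3.15) in LEC-like but 2.25-fold higher (1.41 to 3.73) in AEC-like cells. The counts for the endothelial and stromal classes were 1 higher and 5 lower of 29 in cycling endothelial cells, 3 higher and 1 lower of 30 in AEC-like cells, 1 and 2 of 27 in VEC-like, 1 and 3 of 28 in sinus LEC-like, 1 and 1 of 33 in LEC-like, 1 and 0 of 16 in capillary-like and 0 and 2 of 7 in stromal cells. In stromal cells the decoy receptor of RANK ligand, Tnfrsf11b, was the other gene that passed (89.1 and 26.5 CPM, 3.36-fold lower, 1.76 to 6.86). The stromal chemokines Cxcl13 and Ccl19 were sparse, with 2 UMIs each of Cxcl13 and 10 and 6 UMIs of Ccl19, and Ccl20 led in epithelial cells at 12.9 and 7.99 CPM.

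The genes whose levels were most like each member over 42 profiles (21 classes in 2 libraries, 13730 genes, Pearson correlation of log2(CPM + 1)) are given as a description. The profiles of 1 library share its depth and free RNA, so no p-value applies. Lta was most like Ltb (r = 0.917), Gpr183 and Gpr132, and Ltb most like Dock2 (0.955), Gpr132 and Runx3. For Tnfsf11 the nearest genes were Xlr4c (0.921), Xlr4a and Il2rb, for Il7r Emb (0.907), Tnfaip3 and Xlr4b, and for Il7 Foxp2 (0.924), Nrcam and Ntn1. Ltbr was nearest to App (0.965), Tmem205 and Fnbp1l, Tnfrsf11a to Shb (0.877), Laptm4b and B4galt6, and Tnfrsf1a to Emp1 (0.914), Mllt4 and Abhd5. Relb was most like Smap2 (0.916), Ccnl1 and Bcl10, and Nfkb2 like Smap2 (0.899), Ly6e and Relb (0.883). Among the 3 nearest genes of a member, another member appeared for Lta, with Ltb, and for Nfkb2, with Relb.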

How the data were processed

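Single cells of 1 control and 1 Flcn iΔEC library were analysed. The authors aligned the reads, removed low-quality sequences and PCR duplicates and counted UMIs with Cell Ranger 3.0 on mm10 (from the study's methods and processing notes), and deposited raw counts per gene and cell barcode. From these counts all 6814 and 4459 deposited barcodes were kept, with 64639756 and 60805779 UMIs. Barcodes were integrated by anchors and clustered with Seurat 5.3.0 in R 4.3.3 (2000 features without the members and pathway genes, 30 dimensions, resolution 0.8), followed by a second clustering of the endothelial and the T, ILC and NK cells. Clusters were named from marker lists, with limits for naming that were chosen once the clusters were known. Scrublet in scanpy 1.11.5 called 142 (2.08%) and 37 (0.830%) doublets, which were kept in the main analysis. Counts were summed per class and library with Python 3.11.15, numpy 2.4.6, scipy 1.17.1 and pandas 2.3.3. Levels have exact Poisson intervals, ratios exact conditional intervals and shares of cells exact Clopper-Pearson intervals, all at 95%. For shares each cell was thinned to 2000 UMIs, which left out 440 control and 349 Flcn iΔEC cells. The limit given for a count of 0 is what 3 counts would give. A gene passed 2-fold when it had at least 50 UMIs in the class over both libraries and a log2 ratio of that size with 1 count added. The ratio calculation was tested on simulated data. Named beside the members were pathway genes past 2-fold whose interval excluded 1 (at most 3 each way per class), output genes in their leading class, the 3 genes most like each member, and markers beside a result. The members and lists were chosen with earlier results of these data known. An item of the ILC3 marker list is not reported here. Gene places come from GENCODE M21.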

Additional observations from a re-analysis of the deposited data

Results flagged for a closer look

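For 4 members the log2 ratio between libraries had opposite directions in different classes, each past a fixed minimum size and with intervals that did not include equal levels. In each case the pair of classes with the widest difference is given, and the difference was not tested, since there was 1 library per group. Ltb had a log2 ratio of 1.05 in VEC-like and -1.75 in cycling endothelial cells, a difference of 2.80, beside an ILC3 marker list at 946 and 332 CPM in the latter. With 20 dimensions the former turned to -2.45, so that the opposite directions were not seen in that clustering. Il7r stood at 0.76 in cycling T and -1.69 in sinus LEC-like cells, a difference of 2.45. The ILC3 list was at 2599 and 1623 CPM in sinus LEC-like cells, and the 11 and 30 of them left by the stricter selection had no Il7r UMI. Relb stood at 0.52 in Treg-like and -1.28 in cycling endothelial cells, a difference of 1.80, with the ILC3 list of the latter as given for Ltb. Tnfrsf11a stood at 0.59 in cycling endothelial and -0.80 in ILC3/LTi-like cells, a difference of 1.40. The cycling endothelial class was not divided by vessel type, and its vessel make-up was not tested.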

How the results depend on the processing

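No paired analysis was possible because there was 1 library per group. The log2 ratios of the members in their leading classes moved by less than their counting interval, with the same direction, without doublets and at resolution 1.6 (10 of 10 each), when cells under 1000 UMIs or over 10% mitochondrial UMIs were left out (7 of 7 computed) and without integration (6 of 6 computed). Not computed, because a class had fewer than 20 cells in a library, were Tnfrsf11a and Relb under both of the last settings, Tnfrsf1a under the former, and Il7 and Ltbr under the latter. Under the former no cluster was named HEV-like, sinus LEC-like or stromal, and under the latter none was named VEC-like, so results in these classes were not recomputed there. Outside the leading classes, Ltb in VEC-like cells turned to a log2 ratio of -2.45 with 20 dimensions, and 2-fold was no longer passed by Lta in HEV-like cells without doublets (-0.85), at resolution 1.6 (-0.70) and with 20 dimensions (-0.91), and by Nfkb2 in myeloid cells without doublets (-0.93). With 20 dimensions Lta in ILC3/LTi-like cells had a log2 ratio of -1.78 (268 CPM in the control), Tnfsf11 turned to -0.21 (118 CPM in the Flcn iΔEC library), and Ltb was at 2118 and 1755 CPM. The cause was not tested. Without mitochondrial, ribosomal protein and hemoglobin genes in the total, levels were higher by construction and the 10 log2 ratios held. Control and Flcn iΔEC levels were then 302 and 123 CPM for Lta, 2755 and 2343 for Ltb, 178.5 and 210.3 for Tnfsf11, 62.6 and 34.7 for Il7, 84.4 and 104 for Ltbr, 229 and 191 for Tnfrsf1a, 1972 and 2005 for Il7r, 219 and 203.5 for Relb and 198 and 187 for Nfkb2, and 78.5 for Tnfrsf11a in the Flcn iΔEC library. With a minimum of 20 UMIs, which tests more sparse genes, the number of genes past 2-fold was 337 (112 with the minimum of 50) in ILC3/LTi-like, 310 (74) in NK/ILC1-like, 263 (35) in gamma delta T-like, 353 (96) in Treg-like, 392 (165) in CD4 T-like, 308 (93) in CD8 T-like, 371 (89) in cycling T, 461 (239) in B-like and 217 (32) in early B-like cells and 451 (195) in cycling leukocytes. It was 695 (281) in myeloid, 738 (420) in HEV-like, 1037 (464) in sinus LEC-like, 1523 (1007) in LEC-like, 1046 (631) in VEC-like, 881 (507) in AEC-like, 722 (299) in capillary-like, 1314 (810) in cycling endothelial, 506 (134) in stromal and 2161 (1355) in epithelial cells. Adding 0.5 counts kept 20 of 20 counts within 1.5 times. Shares of cells moved in 20 of 20 cases without thinning and in 11 of 20 at 1000 UMIs, since they depend on depth. Sparse genes such as Il7 and Tnfrsf11a limit what single cells can show.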

Other observations

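The AEC-like class held a cluster led by Rgs5 and Igfbp3 (46 control and 19 Flcn iΔEC cells) beside one led by Gkn3 and Gja5 (55 and 111 cells), and Tnfrsf1a was higher in the former, at 196 and 202 CPM against 119 and 112 CPM. At a resolution of 1.6, chosen after the data had been seen, the cells that kept the HEV-like name had Relb at 136 and 119 CPM and Nfkb2 at 102 and 82.0 CPM, compared with 66.7 and 76.0 CPM and 54.7 and 47.9 CPM in the cluster led by Ccl4. Il7r, in contrast, was at 425 and 405 CPM in the former and 482 and 423 CPM in the latter.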
